A study of Mus musculus with 6 samples.

Results

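Aminoacyl-tRNA synthetases are the enzymes that join each amino acid to its matching transfer RNA, and 36 of their genes were examined here, out of 23284 genes listed in each library. The set was taken by gene name and divided into 20 genes for enzymes of the cytosol and 16 for enzymes of the mitochondrion, whose names end in 2. The class was chosen by the difference of 1 member between the treatment groups: Iars was among the lower genes there, so its difference is given as a description, with no test. The other members were taken by name, with earlier results of these data known. All 36 genes were in the files, and all 36 passed the filter of a mean of at least 1 FPKM (fragments counted per length of transcript and per depth of library, so that levels of different genes can be compared).

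RNA-seq had been run on 6 libraries made from sorted EGFP-positive cells of the calvaria, the roof of the skull, of CX3CR1-EGFP mice. In this reporter strain, cells with an active Cx3cr1 gene, which encodes the fractalkine receptor of monocytes and other myeloid cells, carry the green fluorescent label. All mice had been given LPS, a bacterial outer membrane component, at the calvarial periosteum, the membrane over that bone. Together with LPS, 3 libraries came from mice given 10 mg/kg CTLA4-Ig (abatacept, a fusion protein that binds CD80 and CD86) and 3 from mice given 10 mg/kg whole human IgG as control, with cells sorted 5 days later. There was no group without LPS and no untreated group. The titles call the libraries biological replicates, but no label says how many animals each holds. The errors below are thus based on the spread between libraries, and neither age nor sex is given for any group.

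Cells use the synthetases in 2 places. The cytosolic enzymes supply the ribosomes that translate nuclear messages, and 8 of them are held in a multisynthetase complex built on the scaffold proteins AIMP1, AIMP2 and EEF1E1. The mitochondrial enzymes are also encoded in the nucleus and are imported to serve the small set of proteins made inside the mitochondrion. Gars and Kars each encode both forms from 1 gene, and Eprs encodes a fused enzyme for glutamate and proline. In amino acid shortage or other stress the transcription factor ATF4 is known to raise many of the cytosolic genes.

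The libraries held about 8580000 to 10500000 fragments each, estimated from the spacing of low values. The label of the sorted cells was met in part by their markers: Csf1r ranged from 140 to 193 FPKM and Cx3cr1 from 12.3 to 32.5 FPKM, and osteoclast lineage markers were mixed. Calcr, Dcstamp, Ocstamp, Oscar and Atp6v0d2 were each below 1 FPKM in every library, while Acp5 stood at 15.7 to 27.0 FPKM, Nfatc1 at 22.97 to 24.6, Itgb3 at 5.30 to 11.6, Ctsk at 1.41 to 4.98 and Tnfrsf11a at 1.502 to 1.985. Neutrophil transcripts were abundant, and their summed share was higher in each CTLA4-Ig library than in any control. The 18 neutrophil markers found in the files made up 22.8, 28.5 and 25.5% of the FPKM sum in CTLA4-Ig libraries 1, 2 and 3, against 18.2, 20.8 and 18.8% in control libraries 1, 2 and 3. Control library 1 stood apart, with a summed level of 5 erythroid markers of 7.74 FPKM against 72.2 to 120 FPKM in the other 5 libraries.

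Cytosolic synthetase transcripts were more abundant than mitochondrial ones. The mean level over the 6 libraries ran from 11.96 to 62.3 FPKM in the cytosolic set, with a median of 23.2 FPKM, and from 1.60 to 16.4 FPKM in the mitochondrial set, with a median of 7.55 FPKM. The summed level of the cytosolic enzymes was 4.78 to 5.28 times that of the mitochondrial enzymes in every library. In bulk RNA, fewer cells of a type and less RNA per cell cannot be told apart, and that holds for each level and difference given here.

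**Figure D1:**
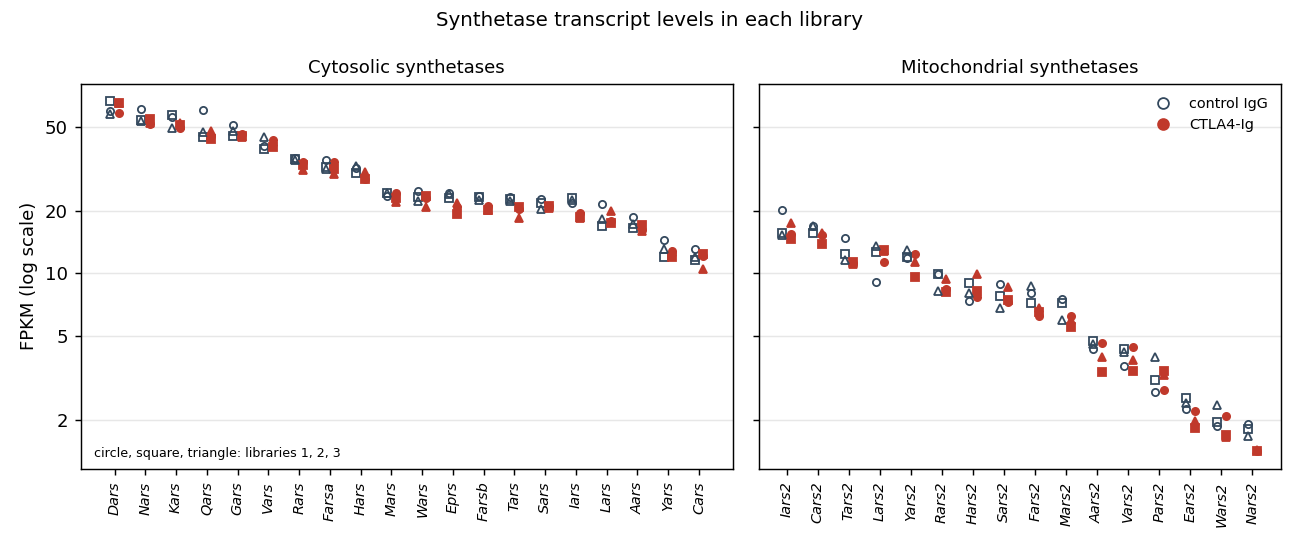
FPKM of each synthetase gene (log axis) in the 6 libraries, ordered by mean level; open dark symbols are control IgG, filled red symbols CTLA4-Ig, and circle, square and triangle are libraries 1, 2 and 3. Cytosolic genes lie between 11.96 and 62.3 FPKM on average and mitochondrial genes between 1.60 and 16.4 FPKM, and the groups lie close together for most genes.

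Among cytosolic genes the highest were Dars, Nars and Kars, which charge aspartate, asparagine and lysine. Dars stood at 58.53, 65.20 and 65.15 FPKM with CTLA4-Ig and at 59.96, 66.73 and 58.05 FPKM with control IgG. Nars stood at 51.8, 55.0 and 52.2 FPKM with CTLA4-Ig and at 60.9, 54.3 and 53.4 FPKM with control IgG. Kars stood at 49.8, 51.1 and 52.3 FPKM with CTLA4-Ig and at 56.0, 57.3 and 49.4 FPKM with control IgG. In all 3 genes the groups overlapped, and their order is not firm, since the ranges of Nars and Kars overlapped.

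The lowest cytosolic genes were Yars and Cars, for tyrosine and cysteine. Yars stood at 12.846, 12.045 and 12.642 FPKM with CTLA4-Ig and at 14.413, 11.959 and 13.115 FPKM with control IgG. Cars stood at 12.174, 12.421 and 10.549 FPKM with CTLA4-Ig and at 13.067, 11.534 and 12.025 FPKM with control IgG. Their libraries overlapped both between the groups and with each other.

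Of the mitochondrial set, Iars2 and Cars2 were the highest and Nars2 and Wars2 the lowest. Iars2, for isoleucine, stood at 15.4, 14.7 and 17.5 FPKM with CTLA4-Ig and at 20.1, 15.6 and 15.2 FPKM with control IgG, where control library 1 was the high one. Cars2, for cysteine, stood at 15.2, 13.8 and 15.5 FPKM with CTLA4-Ig and at 16.9, 15.5 and 16.9 FPKM with control IgG. Wars2, for tryptophan, stood at 2.08, 1.68 and 1.65 FPKM with CTLA4-Ig and at 1.86, 1.94 and 2.34 FPKM with control IgG. The groups overlapped in each of these 3 genes.

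Most amino acids had a cytosolic transcript that exceeded its mitochondrial counterpart. Of 16 pairs, 14 had a ratio above 1 in all 6 libraries. The widest was asparagine, where Nars stood 30.2 to 39.1 times above Nars2, followed by tryptophan, at 9.473 to 14.014 times. The exceptions were tyrosine, with a Yars to Yars2 ratio of 0.997 to 1.26, and cysteine, where Cars was the lower of the pair, at 0.679 to 0.900 of Cars2. For isoleucine the ratio of Iars to Iars2 ran from 1.06 to 1.48. In 15 of the 16 pairs the ratio overlapped between the groups, and the exception was Nars over Nars2, at 36.6 to 39.1 in CTLA4-Ig libraries and at 30.2 to 32.2 in controls.

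**Figure D2:**
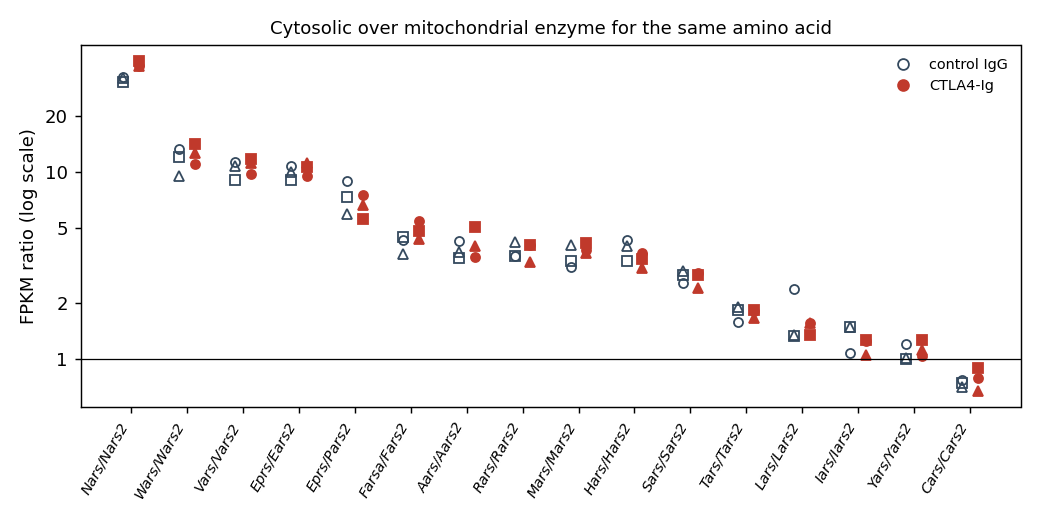
Ratio of FPKM of the cytosolic to the mitochondrial gene for the same amino acid in each library (log axis; the line marks 1; open dark symbols are control IgG, filled red symbols CTLA4-Ig; circle, square and triangle are libraries 1, 2 and 3, with Farsa standing for the 2 subunits of the cytosolic phenylalanine enzyme and Eprs set against both Ears2 and Pars2). Asparagine is the widest at 30.2 to 39.1, and only cysteine lies below 1 in every library.

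The groups were compared to see whether the other synthetases were lower along with Iars, and whether the cytosolic and mitochondrial sets differed alike. Of the 20 cytosolic genes 18 had a negative log2 fold change, with a median of -0.08, and of the 16 mitochondrial genes 14 were negative, with a median of -0.13. Over all 10865 genes tested the median was -0.01 and 52.3% were negative. No synthetase passed the test: limma, with Benjamini-Hochberg adjustment over all genes, called 0 of 36 members and 0.0% of all genes. Leaving out Iars, which the choice of the class used, an unadjusted p under 0.05 was reached by 4 of the other 35 members on the lower side (Farsb, Fars2, Eprs and Tars) and 0 on the higher, beside 1.98% of all genes lower and 4.09% higher. The groups did not overlap in 8 of these 35 members on the lower side and 0 on the higher, beside 5.69% of all genes lower and 6.5% higher. The class was taken up because of this comparison, so nothing is read from these counts. The size was small in every member: the log2 fold changes ran from -0.25 to 0.08, with standard errors of 0.05 to 0.14. Standard errors throughout are those of limma, which draws the variance of each gene toward a trend over all genes. Log2 fold changes throughout are differences on the log2(FPKM + 1) scale, which understates those of low genes such as the rarest mitochondrial enzymes.

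**Figure D3:**
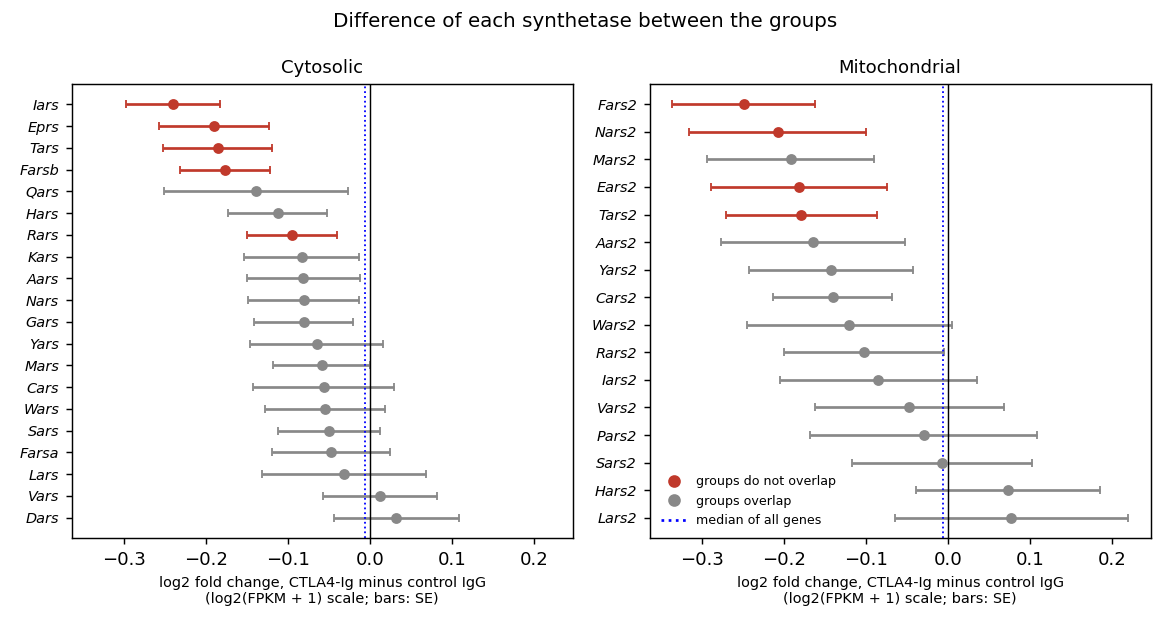
Log2 fold change of each synthetase, CTLA4-Ig minus control IgG, on the log2(FPKM + 1) scale, with bars of 1 SE; red points are genes whose 3 libraries per group do not overlap, and the dotted line is the median of all genes, -0.01. The points lie to the left of 0 in 18 of 20 cytosolic and 14 of 16 mitochondrial genes, and the lowest point is -0.25.

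Iars, the cytosolic isoleucine enzyme (chromosome 13, 49682130 to 49734267, GRCm38), stood at 19.4, 18.5 and 18.5 FPKM in CTLA4-Ig libraries 1, 2 and 3. In control libraries 1, 2 and 3 it stood at 21.6, 23.0 and 22.5 FPKM. All 3 CTLA4-Ig libraries were below all 3 controls, and the mean was 16.02% lower, at 18.8 ± 0.516 against 22.4 ± 0.701 FPKM (SD, n = 3). The log2 fold change was -0.24 ± 0.06 (SE). Iars had been picked out as 1 of the first 10 genes among those lower without overlap, so its own place says nothing further. The order was by unadjusted p from limma and not by log2 fold change. The last gene inside that limit was Gm15987 at -0.33 and the first outside was Qtrt1 at -0.41. Its mitochondrial counterpart Iars2 (chromosome 1, 185286642 to 185329419) had a log2 fold change of -0.08 ± 0.12 (SE), with overlapping groups, and 0.0376 without control library 1.

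The start of the Iars gene carries letters that match the site bound by ATF4 together with C/EBP factors, and so do 4 other cytosolic members. Iars and 3 of the others are shown here because these 5 members, and not the class as a whole, share the letters. The search used TGATGNAA on both strands, in windows of 250 bases before to 50 bases after each start (RefSeq, GRCm38.p6). Of 27 members with an entry, 5 held a match, all cytosolic (18.5%), beside 4.51% of 27025 genes. Capitals mark the match, which reads as its reverse complement in each sequence shown but that of Yars.
Iars, chr13:49682126-49682155, plus strand: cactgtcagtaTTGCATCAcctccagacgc
Tars, chr15:11399655-11399684, minus strand: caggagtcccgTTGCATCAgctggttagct
Gars, chr6:55037960-55037989, plus strand: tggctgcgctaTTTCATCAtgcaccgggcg
Yars, chr4:129189895-129189924, plus strand: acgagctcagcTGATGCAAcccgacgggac
The log2 fold changes of these 5 genes were -0.24 for Iars, -0.19 for Tars, -0.08 for Aars, -0.08 for Gars and -0.06 for Yars.

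The other motif searched was the E-box CACGTG, which MYC and related factors bind and which reads the same on both strands. It was held by 5 of the 27 members, Aars, Farsb, Iars, Tars and Ears2 (18.5%), beside 8.09% of all genes. It shares no letters with the ATF4 site in Iars, where it lies 69 bases before the start and the ATF4 match 7 bases past it.
Iars, chr13:49682050-49682079, plus strand: accaatcgccaCACGTGttgtttgtaggtg
Farsb, chr1:78488918-78488947, minus strand: tagacaggcatCACGTGagacagcccaaga
A match is a description of the letters and not of binding.

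Apart from Iars, 4 cytosolic genes were lower in all 3 CTLA4-Ig libraries than in any control. Eprs (chromosome 1, 185361417 to 185428360), which encodes the fused glutamate and proline enzyme of the multisynthetase complex, stood at 20.9, 19.2 and 21.8 FPKM with CTLA4-Ig and at 24.2, 22.9 and 23.9 FPKM with control IgG. Tars (chromosome 15, 11383663 to 11399658), for threonine, stood at 20.4, 20.8 and 18.4 FPKM with CTLA4-Ig and at 23.2, 22.8 and 22.2 FPKM with control IgG. Their log2 fold changes were -0.19 ± 0.07 (SE) for both genes, a mean 12.8% lower in Eprs and 12.5% lower in Tars. The highest CTLA4-Ig library of Eprs was library 3, and that of Tars library 2.

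Farsb (chromosome 1, 78417958 to 78488897), the β subunit of the phenylalanine enzyme, stood at 20.923, 20.007 and 20.008 FPKM with CTLA4-Ig and at 23.5, 23.2 and 22.5 FPKM with control IgG. Its log2 fold change was -0.18 ± 0.05 (SE). The α subunit gene Farsa, whose product works in the same enzyme, stood at 34.2, 31.7 and 29.9 FPKM with CTLA4-Ig and at 35.0, 32.3 and 31.8 FPKM with control IgG. Its groups overlapped, with a difference of -0.05 ± 0.07 (SE) on the log2 scale. Rars, for arginine, stood at 34.1, 33.2 and 31.4 FPKM with CTLA4-Ig and at 35.5, 35.3 and 34.7 FPKM with control IgG, a log2 fold change of -0.10 ± 0.06 (SE). The gap between the groups in Rars was thus narrow, from 34.1 to 34.7 FPKM.

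Other cytosolic genes overlapped between the groups. Gars, for glycine in both compartments, stood at 46.4, 45.2 and 45.1 FPKM with CTLA4-Ig and at 51.3, 45.7 and 47.9 FPKM with control IgG, a log2 fold change of -0.08 ± 0.06 (SE). Wars, the tryptophan enzyme, which interferon γ is known to induce, stood at 23.0, 23.5 and 20.8 FPKM with CTLA4-Ig and at 24.7, 23.2 and 22.1 FPKM with control IgG. Its log2 fold change was -0.05 ± 0.07 (SE). Interferon-stimulated genes varied far more over these libraries than Wars did: the mean log2(FPKM + 1) of 26 such genes was 2.13 in control library 1 and 2.72 to 3.20 in the other 5.

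The high control in several genes was library 1. Qars, for glutamine, stood at 60.5 FPKM there against 44.2 to 47.8 FPKM in the other 5 libraries, and its log2 fold change was -0.14 ± 0.11 (SE). Of the 20 cytosolic genes 14 had their highest value in control library 1, and 0 had theirs in a CTLA4-Ig library. The same count over all genes was not made, so whether it is particular to the synthetases is not known. Without control library 1 the median log2 fold change of the cytosolic set was -0.0282, with 18 of 20 genes negative, and with array weights, which weigh each library by its fit, it was -0.0435. Iars was -0.263 without that library. Dars and Vars, for aspartate and valine, were the cytosolic genes on the positive side, at 0.03 ± 0.08 and 0.01 ± 0.07 (SE), and Vars was at -0.0064 when FPKM sums without neutrophil markers were made equal. The remaining cytosolic members Aars, Hars, Lars, Mars and Sars had log2 fold changes of -0.11 to -0.03.

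Of the mitochondrial set, 4 genes were lower without overlap. Fars2 (chromosome 13, 36117428 to 36537595), for phenylalanine, stood at 6.27, 6.54 and 6.86 FPKM with CTLA4-Ig and at 8.10, 7.20 and 8.67 FPKM with control IgG. Its log2 fold change of -0.25 ± 0.09 (SE) was the lowest of the 36 at a pseudocount of 1, where Iars stood at -0.24 and Nars2 at -0.21. At a pseudocount of 0.1 Nars2 was lower, at -0.3171 against -0.2788, and without control library 1 Iars was, at -0.2634 against -0.2381. Nars2 (chromosome 7, 96950839 to 97064758), for asparagine, stood at 1.41, 1.41 and 1.42 FPKM with CTLA4-Ig and at 1.89, 1.80 and 1.68 FPKM with control IgG, a log2 fold change of -0.21 ± 0.11 (SE). An estimated 46 to 64 fragments lay behind each Nars2 value if its longest annotated transcript is taken, a counting error of 14.8% at the fewest. A shorter transcript would mean fewer fragments and a larger error.

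The other 2 were Tars2 and Ears2. Tars2, for threonine, stood at 11.3, 11.4 and 11.1 FPKM with CTLA4-Ig and at 14.7, 12.4 and 11.6 FPKM with control IgG, a log2 fold change of -0.18 ± 0.09 (SE). Ears2, for glutamate, stood at 2.2009, 1.8177 and 1.9673 FPKM with CTLA4-Ig and at 2.24, 2.54 and 2.40 FPKM with control IgG, a log2 fold change of -0.18 ± 0.11 (SE). Both rested on a narrow gap. Ears2 rested on an estimated 32 to 49 fragments per library, again for the longest transcript, a counting error of 17.7% at the fewest.

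Lars2 and Hars2 were the mitochondrial genes on the positive side. Lars2, for leucine, stood at 11.4, 12.9 and 12.8 FPKM with CTLA4-Ig and at 9.15, 12.7 and 13.6 FPKM with control IgG, a log2 fold change of 0.08 ± 0.14 (SE) that was -0.0812 without control library 1. Hars2, for histidine, stood at 7.75, 8.27 and 9.95 FPKM with CTLA4-Ig and at 7.39, 9.04 and 8.05 FPKM with control IgG, a log2 fold change of 0.07 ± 0.11 (SE) that was -0.0202 without CTLA4-Ig library 3. The remaining members Aars2, Mars2, Pars2, Rars2, Sars2, Vars2 and Yars2 had log2 fold changes of -0.19 to -0.01. Of the 16 mitochondrial genes 9 had their lowest value in CTLA4-Ig library 2, and without that library the median of the set was -0.0751, with 12 of 16 negative. How many of all genes had their lowest value there was not counted.

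The cytosolic and mitochondrial sets were next set side by side as averages over their genes. The mean log2(FPKM + 1) of the cytosolic set was 4.813, 4.796 and 4.784 in CTLA4-Ig libraries 1, 2 and 3 and 4.9481, 4.8542 and 4.8585 in control libraries 1, 2 and 3. That of the mitochondrial set was 2.85, 2.78 and 2.88 in the CTLA4-Ig libraries against 2.93, 2.95 and 2.94 in the controls. Neither set's libraries overlapped between the groups, and without Iars the cytosolic averages were 4.8105 to 4.8371 and 4.8683 to 4.9717. Without Iars, 17 of 19 cytosolic genes were negative, with a median log2 fold change of -0.0808, and of -0.0227 without control library 1 as well. The difference between the sets within a library did overlap, at 1.96, 2.02 and 1.91 in CTLA4-Ig libraries against 2.01, 1.91 and 1.92 in controls. The cytosolic median log2 fold change exceeded the mitochondrial one by 0.05, and by -0.0167 without CTLA4-Ig library 2, so which set was lower turned with that library.

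The lower averages stood beside a higher share of neutrophil marker transcripts in CTLA4-Ig libraries. Of these 18 markers 14 were positive, with a median log2 fold change of 0.53 over all 18. Limma called 0 of the 18, and 10 were higher without overlap, beside 6.5% of all genes. The 4 negative ones were Mpo, Elane, Prtn3 and Ctsg, at -0.13 to -0.01. The summed level of the 18, mostly S100a8 and S100a9, was 175860 to 242500 FPKM in CTLA4-Ig libraries against 136740 to 155760 FPKM in controls. As a share of the FPKM sum without those markers, the cytosolic enzymes made up 0.101, 0.0984 and 0.0959% in CTLA4-Ig libraries against 0.107, 0.105 and 0.105% in controls. With sums of the other genes made equal, the medians were -0.099 for the cytosolic and -0.145 for the mitochondrial set, beside -0.0238 for all genes. This rescaling divides all genes of a library by 1 number, so it cannot separate the part of neutrophils. Relative to all genes the cytosolic median was -0.0752 with it and -0.0745 without. The part of cell proportions in the result, neutrophils included, was not tested. Of 10 tested monocyte and macrophage markers 8 were negative, with 0 called by limma and 0 at an unadjusted p under 0.05. The sum of that list was 81.7 to 87.5% Lyz2, a lysozyme gene that neutrophils express too. With Lyz2 it was 21750 to 23058 FPKM in CTLA4-Ig libraries against 16861 to 22442 FPKM in controls. Without Lyz2 it was 2879 to 3024 FPKM against 3065 to 3087 FPKM, with no overlap. Most of that remainder was Ly6c2, at 2158 to 2304 FPKM against 2167 to 2335 FPKM, with overlap. Of the 10 tested markers 0 were lower without overlap, and their mean log2(FPKM + 1) overlapped, at 6.86 to 6.99 against 6.88 to 7.13. A lower monocyte level is thus not read from the sum.

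The enzymes of the multisynthetase complex, 8 in number, had a median log2 fold change of -0.09, with 7 negative, and the 12 free cytosolic enzymes had -0.07, with 11 negative. Without control library 1 these medians were -0.0656 and -0.0194. Of the scaffold genes, Aimp1 had 0.03 ± 0.08, Eef1e1 0.02 ± 0.08 and Aimp2 -0.07 ± 0.10 (SE), and limma called 0 of the 3. Their median was 0.02 while the difference of their group means was -0.0077, and the median was -0.0549 without control library 1. Aimp1 stood at 45.9, 38.9 and 42.6 FPKM with CTLA4-Ig and at 44.7, 39.7 and 40.1 FPKM with control IgG, with overlapping groups. By catalytic fold, the 19 class I members had a median of -0.10 and the 17 class II members -0.08, with 17 and 15 negative. Eprs, whose fused enzyme holds both folds, was counted in class I only.

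Genes of the ATF4 response outside this class lay on both sides of 0. Atf4 itself stood at 114, 124 and 121 FPKM with CTLA4-Ig and at 134, 119 and 123 FPKM with control IgG, a log2 fold change of -0.07 ± 0.07 (SE). The 12 cytosolic synthetases on the list of ATF4 targets were all negative, with a median of -0.07, and the other 8 cytosolic genes had -0.09, with 6 negative. Without control library 1 these were -0.0282 with 11 of 12 negative and -0.0352 with 7 of 8. Ddit3, which encodes the stress factor CHOP, stood at 14.4, 11.9 and 14.2 FPKM with CTLA4-Ig and at 10.1, 11.1 and 8.51 FPKM with control IgG, a log2 fold change of 0.41 ± 0.11 (SE) with no overlap. Chac1, a glutathione-degrading enzyme and ATF4 target, had 0.36 ± 0.11 and Asns, asparagine synthetase, 0.25 ± 0.13 (SE). Ddit4, a stress-induced inhibitor of mTORC1 signalling, had -0.96 ± 0.57 (SE) with overlapping groups, and stood at 48.9 FPKM in control library 1 against 5.33 to 15.04 FPKM in the other 5. Of 28 tested genes of the ATF4 and amino acid response list 19 were negative, with a median of -0.04, and limma called 0 in either direction over all genes. Ddit3 shares exons with Mars on the opposite strand, and since the use of strand in counting is not given, both values are uncertain.

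Other genes of translation had mostly small negative differences, with 0 called by limma in each list, where 52.3% of all genes were negative. Of 41 cytosolic translation factors 37 were negative, with a median log2 fold change of -0.08, led by the initiation factor subunits Eif3e at -0.23 and Eif3b at -0.22. That median was -0.0377 without control library 1. Of 10 mitochondrial translation factors 10 were negative, with a median of -0.06, and 8 were negative without control library 1 (median -0.1007). The initiation factor gene Mtif2 stood at 8.16, 8.12 and 8.43 FPKM with CTLA4-Ig and at 10.3, 9.20 and 10.3 FPKM with control IgG. Of 74 mitochondrial ribosomal protein genes 55 were negative, with a median of -0.05, and Mrpl47 and Mrps28 were at -0.30 and -0.23. Of 12 genes related to the synthetases or acting beside them on transfer RNA, 11 were negative, with a median of -0.12. Among them Pstk, a kinase of the selenocysteine pathway, had -0.45 ± 0.20 (SE). Gatb, listed under its older name Pet112l and needed to make glutaminyl-tRNA in mitochondria, had -0.22 ± 0.14 (SE).

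**Figure D4:**
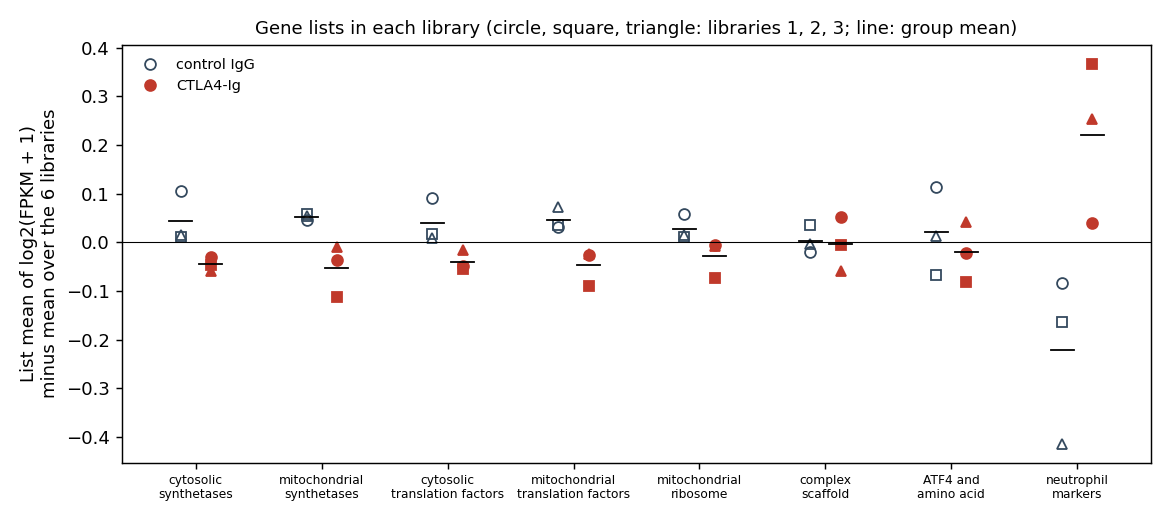
Mean log2(FPKM + 1) of 8 gene lists in each library, minus the mean over the 6 libraries; open dark symbols are control IgG, filled red symbols CTLA4-Ig, lines are group means. Both synthetase lists and the translation factor and mitochondrial ribosome lists have lower points with CTLA4-Ig, without overlap, the scaffold and ATF4 lists overlap, and the neutrophil list lies higher.

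Exons of 9 of the 36 genes overlap those of another gene in the GENCODE annotation, among them Hars with Hars2, Aars with Exosc6, Fars2 with Lyrm4, Farsb with Sgpp2 and Iars2 with Rab3gap2. How such shared fragments were assigned is not given in the sources at hand, so the levels of those 9 genes are uncertain.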

How the data were processed

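RNA was measured in 6 libraries, 3 per group, grouped by the treatment label. The tools that the submitters' processing notes list are Cuffnorm 2.2.1, SAMtools 0.1.19, Bowtie2 2.2.3 and TopHat2 2.0.13, with genome build mm10 (GRCm38). Their settings, annotation and use of strand are not stated in those notes. The authors deposited FPKM per gene and library, from Cuffnorm. Depth (8580000 to 10500000 fragments) was estimated from 260 genes whose low values were whole multiples within 0.02. Counts were not rebuilt.

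Log2(FPKM + 1) was tested with limma 3.58.1 in R 4.3.3 (trend, group as factor) on the 10865 genes whose mean reached 1 FPKM, Benjamini-Hochberg adjusted at 0.05, after a check on simulated data. Python 3.11.15 did the rest. Members and lists were chosen with earlier results of these data known. Values in every library are given for Iars, Iars2, Wars, Eprs, Kars, Gars, the highest, lowest and most different members and those without overlap; Farsa and Qars were added after their values were seen. Of 317 list genes 314 were found, 6 by an older symbol. Promoters and coordinates are RefSeq's (GRCm38.p6). Alternatives were other pseudocounts, filters, scalings, priors, a replicate block, array weights and each library left out in turn; equal sums without neutrophil markers were chosen after seeing the data.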

Additional observations from a re-analysis of the deposited data

How the results depend on the processing

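No synthetase was called under any of the 17 alternatives. Over all genes limma called 0, and 0 to 6 when 1 library was left out (6 without CTLA4-Ig library 3, 2 without CTLA4-Ig library 1 or control library 3, 1 without CTLA4-Ig library 2 or control library 2); 659 genes had an unadjusted p under 0.05 with all 6. With 1 library left out, the cytosolic median ranged from -0.1039 to -0.0282, the mitochondrial median from -0.1691 to -0.0751, their difference from -0.0167 to 0.0951 and Iars from -0.2634 to -0.2205. The cause of these shifts was not tested. Other alternatives moved these values by less than the spread between libraries. The exception among members was Nars2, at -0.2072, which was -0.3171 with a pseudocount of 0.1 and -0.2566 with 0.5. Among members, 5 changed sign with array weights (Dars, Lars, Hars2, Lars2 and Sars2) and 1, Vars, with equal sums. With 1 library left out, 1 to 5 members changed sign. The 5 were Lars, Vars, Iars2, Lars2 and Sars2, without control library 1. In these fits 17 to 19 of the 20 cytosolic and 12 to 15 of the 16 mitochondrial genes were negative. Same-numbered libraries deviated with correlations of -0.1537, -0.0942 and -0.0235. These values show no shared deviation but cannot exclude a pairing, and no label ties equal numbers to an animal or batch. With the replicate block 0 genes were called. The medians, -0.0809 and -0.1302, cannot move under that block in this balanced design. Low mitochondrial genes rest on few fragments, which limits their precision.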
